A study of Ananas comosus with 48 samples.

Results

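The sequences described here are the mature microRNAs (miRs) that the deposited frequency table lists but for which not a single read was counted in any of the 48 small RNA libraries. They were selected on the raw counts: a listed sequence was a member if its counts summed to 0 over all libraries. Of the 190 listed mature sequences, 63 met this rule, which is 33.2%, and 127 were detected, with 1 or more counts. The libraries were made from apices of pineapple (Ananas comosus, cultivar MD1) grown in a commercial field. Ethephon, which is broken down to ethylene in the plant and brings on flowering, was injected into the plant centre at 50 mg in 10 ml of water, and control plants received 10 ml of water alone. There were 8 samplings, the first labelled 6 hours, then each day from day 1 to day 6, and day 8, with 3 libraries per treatment and sampling, so that 24 ethephon and 24 water libraries were compared. Each library pooled 3 apices of a field replication, and leaf primordia remained on the apices. No miR marker of the apex was sure enough to check the tissue by.

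A plant miR is cut from the stem of a hairpin transcript as a duplex of 2 short strands, a 5p arm and a 3p arm. One strand is usually loaded into an ARGONAUTE protein and guides it to matching messenger RNAs, whereas the other is mostly degraded. Conserved families are listed as several sequences, since each family is encoded by several hairpin genes, and many families are limited to certain organs or to certain states of nutrition. The table lists both arms under names that end in 3p or 5p, or in 3 or 5 for families with longer numbers, because it shortens those names.

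Only the miR397 and miR858 families were listed with no detected sequence at all. miR397 is known to target laccases, copper enzymes of lignin formation, and is known for its dependence on copper supply. miR858 is known from other plants to target MYB transcription factors of phenylpropanoid metabolism. Both arms of miR397a and both arms of miR858a were at 0 in the 48 libraries. Their sequences are shown since they stand for whole families, with the seed, here bases 2 to 8, in capitals.
miR397a-5p: uCAUUGAGugcagcguugaug
miR397a-3p: uCGGCGCUgcacucaaucaug
miR858a-5p: uUCGUUGUcuguucgacccuc
miR858a-3p: cGGGGCGUgacagauaaaaug

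Members that resembled a detected sequence most closely are shown next. In 5 cases a member differed by 1 base from a detected sequence, which itself had only 1 to 6 counts over the 48 libraries. Each is printed above the detected sequence next to it, with the differing base in capitals.
miR156g-3p: gcucacuucucuGucugucagc
miR156f-3p: gcucacuucucuCucugucagc
miR156i-3p (22 bases): gcucacuucucucucugucaCc
miR156f-3p: gcucacuucucucucugucaGc
miR172b-5p: gcagcaucaUcaagauucaca
miR172d-5p: gcagcaucaCcaagauucaca
miR395a-5p: aguucccucaGacacuucauu
miR395d-5p: aguucccucaUacacuucauu
miR5021c-5: uucucucuugcucUcucucuc
miR5021d-5: uucucucuugcucCcucucuc

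A pair of members overlapped an abundant detected sequence when the ends were allowed to shift. These pairs, and the sequences below, were chosen after their values were seen. Capitals mark the bases that are shared in the overlap.
miR396c-3p: uuccuUUCCACAGCUUUCUUG
miR396a-5p: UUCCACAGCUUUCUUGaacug
miR159a-5p: GAGCUUCCUUCAGUCCAgUCa
miR319a-5p: aGAGCUUCCUUCAGUCCAcUC

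Further members to which the results refer are given with the seed in capitals, each before its detected opposite arm or nearest relative. The last pair, miR156c-3p and miR156e-3p, are both silent.
miR394a-5p: aGAGUGGAugauaugaucaaag
miR394a-3p: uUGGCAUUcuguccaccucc
miR2275c-3: uUUGGUUUccuccaauaucuca
miR2275a-3: uUCAGUUUccucuaauaucuca
miR2275c-5: aGGAUUGGaggaaaucaaacu
miR393c-5p: uCCAGAGAaaucgcauugauc
miR393b-5p: uCCAAAGGgaucgcauugauc
miR399c-3p: uACCAAAGgagaguugcccug
miR399a-3p: uGCCAAAGgagaauugcccug
miR156c-3p: gCUCACUGcucuaucugucag
miR156e-3p: gCUCACUGcucuaucugucagc

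A last set shows the members made of A and G alone or of C and U alone, again with the seed in capitals.
miR5021d-3: gAAGAAGAagaagaagaaaa
miR5021a-3: gGAGAAGAagaagaagaaaa
miR5021b-5: aGAGAAGAagaagaagaaaa
miR2673f-5: gGAAGAAGaagaggaaaagagaag
miR5021a-5: uUCUCUUCcucucucucucu
miR5021b-3: cCCUUUUCuucuuccuuuccu
miR5021e-5: uUCUCUCCcucucucucucucuuu

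The level that these zeros allow was set by the depth of the libraries. A count of 0 was taken to allow a true level of up to 3 counts of the total. This is a bound on counting error and not a certain ceiling. The 48 libraries held 2941610 counts in listed miRs and 681400000 sequencing tags. The limit for a member was thus 1.02 CPM, which are counts per 1000000 listed miR counts, or 0.044 per 10000000 tags. The limit holds for each member and, since their joint count was also 0, for the 63 summed. Over the 24 ethephon libraries the limit was 2.18 CPM and 0.0867 per 10000000 tags, against 1.92 CPM and 0.0894 per 10000000 tags over the 24 water libraries. The 8 ethephon groups of 3 libraries allowed 12.5 to 22 CPM, and the 8 water groups 13.5 to 19.1 CPM. In a single library the limit lay between 32.7 and 161 CPM with a median of 48.8, and the highest was that of replicate 2 of ethephon at day 5, which had 18581 listed counts. A difference between ethephon and water apices smaller than these limits was not detectable for any of the 63. Only counting error enters these limits, and as the reads carried no molecular identifiers, PCR copies of a molecule were counted separately. In these bulk libraries fewer cells that make a miR and less of it per cell cannot be told apart.

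**Figure D1:**
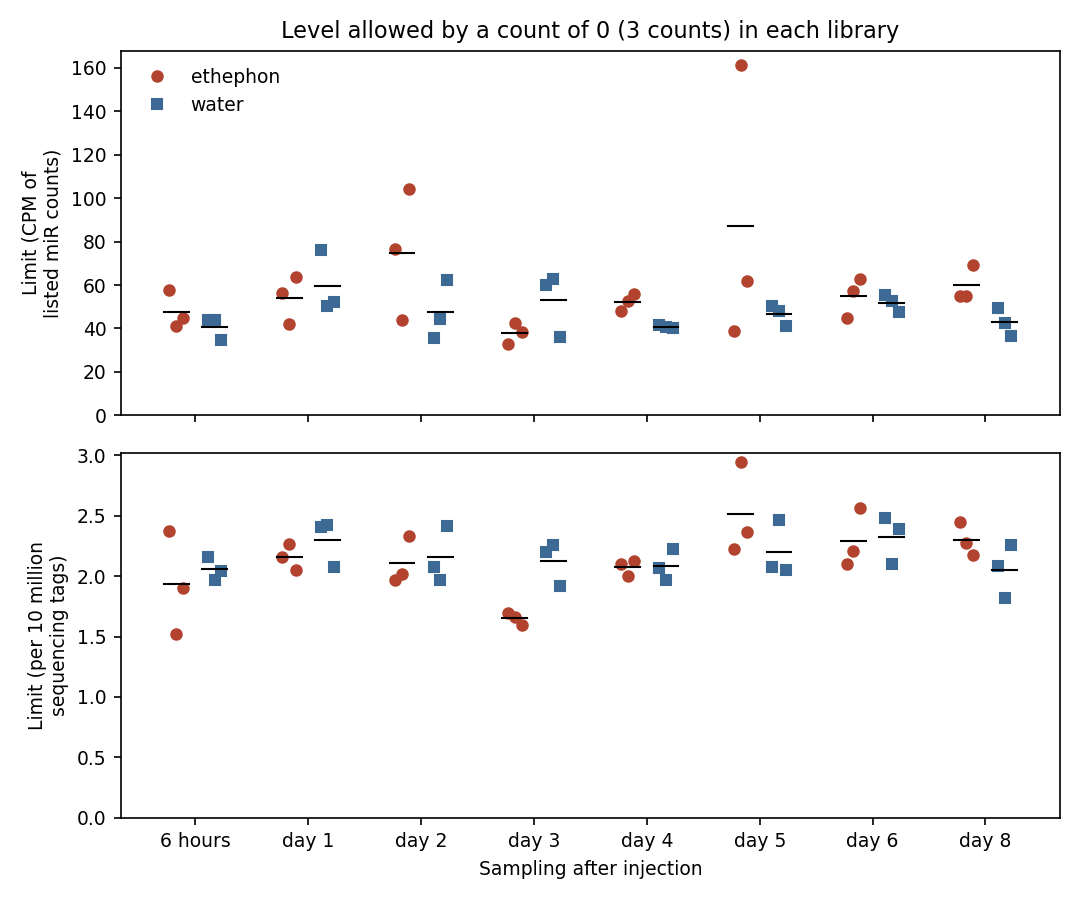
Detection limit of each of the 48 libraries at the 8 samplings, in CPM of listed miR counts (top) and per 10000000 sequencing tags (bottom). Circles are ethephon libraries, squares water libraries and lines the mean of 3 libraries; the limits run from 32.7 to 161 CPM and from 1.52 to 2.95 per 10000000 tags, with replicate 2 of ethephon at day 5 the highest on both scales.

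The depth behind the zeros was compared between treatments. Ethephon libraries averaged 15.74 ± 0.49 log2 listed miR counts, and water libraries 15.96 ± 0.29 (SD, n = 24 each). The difference of -0.23 did not pass a two-sided permutation test (p = 0.0557, adjusted p = 0.111 over 2 measures), but without replicate 1 of every group it was -0.35 and passed (adjusted p = 0.038, permutation test). Log2 sequencing tags averaged 23.76 ± 0.22 in ethephon and 23.73 ± 0.13 in water libraries (SD, n = 24 each), a difference of 0.03 (permutation p = 0.522, adjusted p = 0.522). Libraries detected 64 to 83 of the 127 sequences, with a median of 77.5 in ethephon and 76 in water.

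The zeros sat at the lower end of a long tail of rare sequences. Just outside the rule, 12 sequences had a total of 1 count, 8 had 2 and 2 had 3. Of these 22 sequences, 20 belonged to families that also held a silent member. Most detected sequences did so in any case, since only 48 of the 127 came from families with no silent member. miR156f-3p and miR159h-3p each had their only count in replicate 2 of ethephon at day 3, miR159g-5p in replicate 1 of ethephon at day 8 and miR2673h-5 in replicate 1 of ethephon at day 5. The other 8 with 1 count, miR164b-3p, miR169b-5p, miR169c-3p, miR169c-5p, miR171h-5p, miR171i-5p, miR2673c-5 and miR395d-5p, had it in a water library. miR159d-3p and miR166c-5p had 2 counts in ethephon libraries, miR2275a-5 had 1 in each treatment, and miR169b-3p, miR2275a-3, miR2673a-5, miR2673f-3 and miR5021d-5 had 2 in water libraries. miR156b-3p had 1 ethephon and 2 water counts, and miR399h-3p 2 ethephon and 1 water. These 22 sequences together had 12 ethephon counts and 22 water counts. Over all listed sequences, 6 were detected in ethephon libraries only and 13 in water libraries only, none with more than 2 counts. At the other end, 91 sequences had 10 or more counts, 35 had 1000 or more and 47 were found in each of the 48 libraries.

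Families that held silent members were mostly families with few reads. The 190 sequences fell into 38 families, of which 2 were wholly silent, 19 were silent in part and 17 had no silent member. The 19 families silent in part had a median of 214 counts (2 to 2103968), against a median of 11870 (67 to 436214) for the 17 families with none silent. Fewer than 1000 counts were found for 13 of the 19 and for 5 of the 17. The 19 families also listed more sequences that could be at 0, 138 against 48 in the 17. The rule itself lowers a family's sum, so that this is a description and no test was made. It was also not without exception, since miR159, with the most counts of any family, held 6 silent sequences. In the plot of families, silent members also appear in miR171, miR172, miR319, miR394 and miR396, all with more than 1000 counts.

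**Figure D2:**
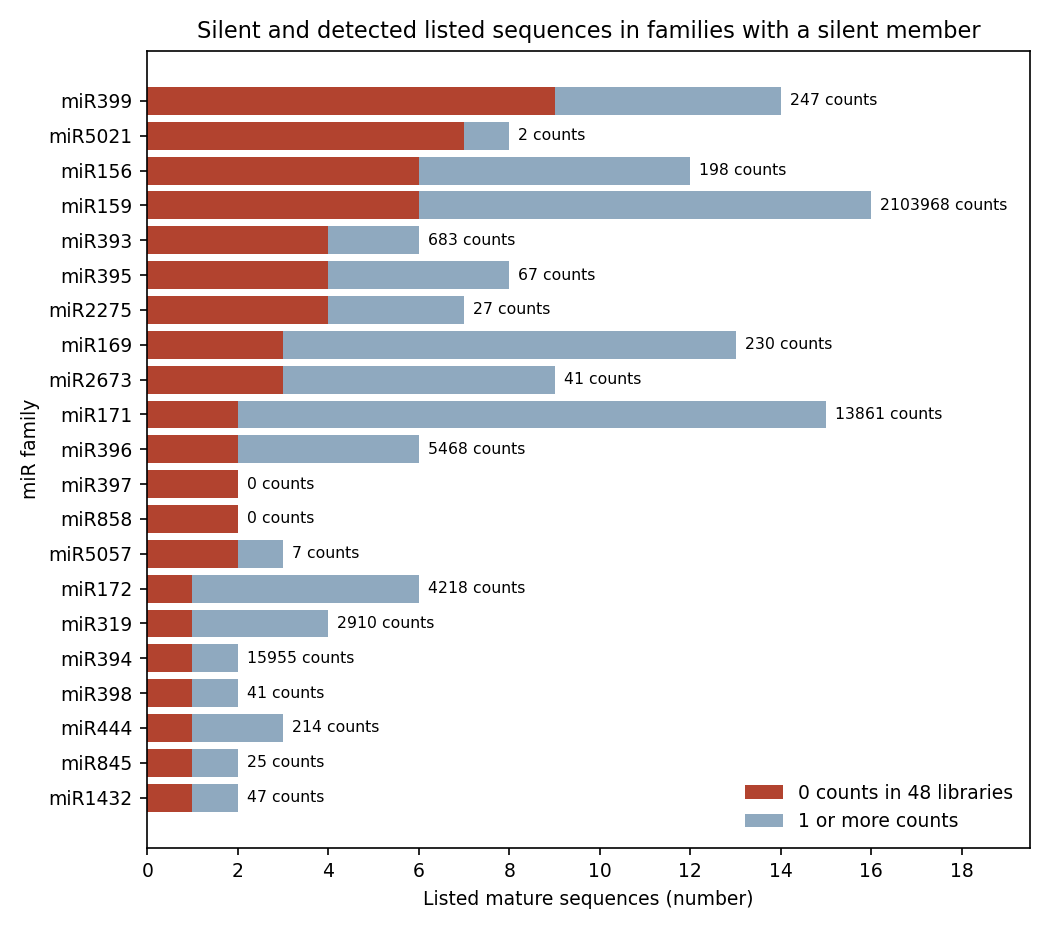
Number of silent (left, dark) and detected (right, light) listed sequences in each of the 21 families with a silent member, with the counts of the family over the 48 libraries beside each bar. miR399 had the most silent members, 9 of 14, and miR159 had 6 silent members beside 2103968 counts. Families go by the first name of a sequence.

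Families of growth phase and flowering came first. miR156, which targets SPL transcription factors and holds plants in the juvenile phase, had 6 silent sequences of 12, and all 6 were 3p arms: miR156c-3p, miR156e-3p, miR156g-3p, miR156h-3p and 2 sequences of 22 and 23 bases that are both named miR156i-3p. None of its 3 listed 5p sequences was silent. The family had only 198 counts, 96 in ethephon and 102 in water libraries. Its most abundant sequence was miR156a-3p, with 34 ethephon and 48 water counts, a median of 1 per ethephon library and of 2 per water library. Of miR172, which targets AP2-like repressors of flowering, miR172b-5p alone was silent among 6 sequences. Its family was led by miR172a-3p with 1477 ethephon and 2219 water counts.

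MYB-directed families differed widely in counts. miR159, which targets GAMYB-like factors, was silent for miR159a-5p, miR159d-5p, miR159e-5p and miR159f-5p and for miR159g-3p and miR159i-3p. Thus 4 of its 6 listed 5p sequences and 2 of its 10 listed 3p sequences were silent, and the arms held 22 and 2103946 counts. The family leader miR159c-3p had 524113 ethephon and 592679 water counts. The same sequence is also listed as miR319a-3p and miR319d-3p. Its reads cannot be divided between the families and were counted under miR159, its first name. With miR858, 8 of the 18 sequences of MYB-directed families were silent (44.4%, beside 33.2% of all listed sequences).

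Of the lists of families examined, that of phosphate and sulfate families held the most silent members. miR399, which targets the PHO2 ubiquitin-conjugating enzyme and is made under phosphate shortage, was silent in 9 of 14 sequences, namely miR399c-3p, miR399f-3p and miR399g-3p and miR399c-5p, miR399d-5p, miR399e-5p, miR399f-5p, miR399g-5p and miR399h-5p. Of its 247 counts, 226 belonged to miR399a-3p, with a median of 4 per ethephon library and 4.5 per water library. miR395, which targets ATP sulfurylases and a sulfate transporter and is made under sulfate shortage, was silent in 4 of 8 sequences, all 5p: miR395a-5p, miR395b-5p, miR395c-5p and miR395e-5p. The fifth 5p sequence, miR395d-5p, had 1 count, and the 3 listed 3p sequences shared 66. With miR827, the phosphate and sulfate families were silent in 13 of 24 sequences (54.2%), beside 33.2% of all listed sequences. In the copper families 3 of 9 (33.3%) were silent, both miR397a arms and miR398a-5p. miR398 targets copper/zinc superoxide dismutases, and its 3p arm had 27 ethephon and 14 water counts.

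Families of auxin, meristem and growth control were silent in part. miR393, which targets the TIR1/AFB auxin receptors, was silent in 4 of 6 sequences, miR393a-3p, miR393b-3p, miR393d-3p and miR393c-5p, and none of its 3p sequences had a read. Its 683 counts lay on miR393a-5p and miR393b-5p, with 162 and 161 in ethephon and 180 each in water libraries. miR171, which targets GRAS genes of the meristem, was silent for miR171g-5p and miR171i-3p of 15 sequences. miR394, which targets an F-box gene known from Arabidopsis for its role in the shoot meristem, was silent for miR394a-5p of 2. miR319, which targets TCP genes, was silent for miR319b-5p of 4, and miR396, which targets growth-regulating factors, for miR396c-3p and miR396c-5p of 6. miR169, which targets NF-YA subunits, was silent for miR169d-3p, miR169e-3p and miR169h-3p of 13. By lists of families, beside 33.2% of all listed sequences, 7 of 22 sequences of age and phase families were silent (31.8%), 4 of 17 of auxin families (23.5%), 3 of 30 of boundary, meristem and polarity families (10%), and 3 of 10 of the TCP and GRF families (30%). The shares of the first and the last of these lists were near that of all listed sequences. In miR162 and miR168, which target DICER-LIKE1 and ARGONAUTE1, 0 of 4 were silent.

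The remaining members came from families of limited range or few reads. miR444, a monocot family that targets MADS-box genes, was silent for miR444a-5p of 3, miR1432 for miR1432a-5 of 2 and miR845 for miR845a-5p of 2. A hand-made list called lineage-limited held miR444, miR528, miR529, miR535 and miR1432. Of its 12 sequences, 2 (16.7%) were silent, beside 33.2% of all listed sequences. Of its families, miR528 was also counted with the copper families, and miR529 and miR535 with those of age and phase. How far each family is limited to a lineage was not checked. The list left out miR845, miR2275, miR2673, miR5057 and miR5021, so its share depends on that choice. miR2275, known from grasses as the trigger of phased small RNAs in anthers, was silent for miR2275c-3, miR2275e-5, miR2275f-3 and miR2275f-5 of 7, and had 20 ethephon and 7 water counts. miR2673 was silent for miR2673a-3, miR2673c-3 and miR2673f-5 of 9, and miR5057 for miR5057a-5 and miR5057b-3 of 3. miR5021 came nearest to a silent family among those with a count: miR5021a-3, miR5021a-5, miR5021b-3, miR5021b-5, miR5021c-5, miR5021d-3 and miR5021e-5 were at 0, and the eighth sequence, miR5021d-5, had 2 counts, both in replicate 2 of water at day 6.

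By arm, 34 of 90 listed 5p sequences (37.8%) and 29 of 100 listed 3p sequences (29%) were silent. Members were also placed by the arm of their family with fewer counts, which the same counts define. Of the 59 members from families with counts, 41 (69.5%) lay on the arm with fewer family counts, although that arm held 71 and the other 67 of the listed sequences in these families. A sequence with no reads cannot add to its own arm, so part of this share is built into the measure. In miR393, miR394, miR398, miR444, miR845, miR1432, miR5021 and miR5057 the smaller arm had 0 counts, so all its sequences are members by construction. In miR5021 and miR5057 the larger arm itself had only 2 and 7 counts. The other 18 members belonged to the arm that carried most of their family's reads, among them miR159g-3p, miR159i-3p, miR171i-3p, miR319b-5p, miR393c-5p, miR396c-5p and miR399c-3p. For miR319b-5p this holds by first names only, with 1579 counts on 5p and 1331 on 3p. Had miR159c-3p, with 1116792 counts, been placed in miR319 by its other names, 3p would be the larger arm.

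The detected partner of a silent arm gave the steepest contrasts. Partners were matched by shared name alone, and their hairpin sequences were not given in the sources used here. An opposite arm was listed for 62 of the 63 members, all but miR159i-3p. It was detected for 39 of these, and silent too for 23. miR159a-5p had no read whereas miR159a-3p had 68366 ethephon and 64348 water counts. Per library miR159a-3p had 738 to 4513 counts in ethephon (median 2861) and 1346 to 3949 in water (median 2654), and every library held it. With 3 counts as the limit over the 48 libraries for the silent arm, miR159a-3p was at least 44240-fold higher. miR394a-3p, printed above with its silent partner, had 6590 ethephon and 9365 water counts, at least 5318-fold above miR394a-5p. Its counts ran from 81 to 487 per ethephon library (median 256) and from 172 to 768 per water library (median 342.5).

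The next contrasts were of a smaller order. miR319b-3p had 631 ethephon and 700 water counts, at least 443.7-fold above miR319b-5p, with 9 to 47 per ethephon and 12 to 47 per water library. miR159e-3p had 415 ethephon and 417 water counts, at least 277.3-fold above miR159e-5p. The silent 3p arms of miR393a, miR393b and miR393d stood against at least 114-fold, 113.7-fold and 113.7-fold higher 5p arms, of which miR393b-5p is the partner of both miR393b-3p and miR393d-3p. miR171g-3p had 154 ethephon and 159 water counts, at least 104.3-fold above miR171g-5p. miR172b-3p had 119 ethephon and 156 water counts, at least 91.67-fold above miR172b-5p. For these 9 members the zeros lie far under the level of the partner, and the partner was found in 45 to 48 libraries.

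For most other members the partner was too rare for a wide bound. The opposite arm had 10 to 99 counts for 16 members. Among them miR169a-5p, opposite miR169d-3p and miR169h-3p, had 27 ethephon and 39 water counts, and miR1432a-3 had 21 and 26. miR156c-5p, a sequence listed under several names and opposite all 6 silent miR156 sequences, had 11 ethephon and 15 water counts. miR845a-3p had 7 ethephon and 18 water counts. miR2275c-5, opposite miR2275c-3, had 19 ethephon and 4 water counts, in 10 ethephon and 3 water libraries, with at most 5 in any. The opposite arm had 1 to 9 counts for 14 members, where a count of 0 is little lower than the partner itself.

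**Figure D3:**
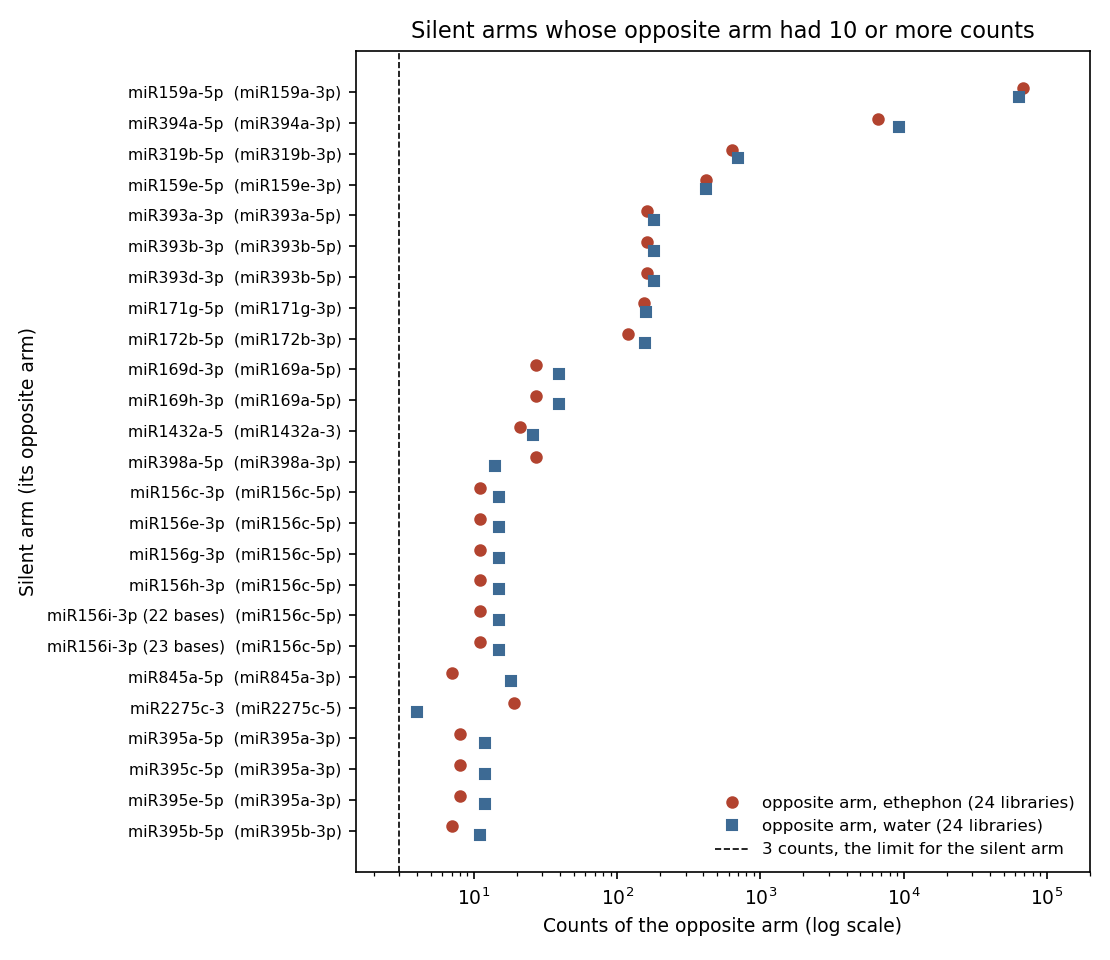
Counts of the opposite arm of the 25 silent members whose opposite arm had 10 or more counts, on a log scale. Circles give the sum of the 24 ethephon libraries, squares that of the 24 water libraries, and the dashed line the 3 counts allowed for the silent arm; miR159a-3p and miR394a-3p lie farthest to the right, and the 6 silent miR156 sequences share a single partner.

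By name, 121 miRs were listed with both arms. Both were detected for 65, only the 5p arm was silent for 23, only the 3p arm for 19, and both for 14. These 14 were miR397a and miR858a together with miR393c, miR396c, miR399c, miR399f, miR399g, miR2275e, miR2275f, miR5021a, miR5021b, miR5021c, miR5021e and miR5057b. The strands were also paired in silico, a measure that the counts did not enter. Paired bases had a median of 17 in the 14 duplexes with both arms silent, 18 in the 39 with 1 silent arm and 17 in the 54 with both detected. The median predicted free energy was -18.7, -26.6 and -27.1 kcal/mol in the same order. Duplexes with 1 silent arm ran from -34.9 to -7.1 kcal/mol. Of these, miR159a had -34.0 kcal/mol, miR394a -13.2 and miR444a -7.6, the last with 8 paired bases. The range of the wholly silent duplexes was wide, -31.3 to -6.8 kcal/mol. miR399g, miR399f and miR397a were at its stable end with -31.3, -30.1 and -29.2 kcal/mol, and miR5021e and miR5057b at the other with -6.8 and -9.2. Since duplexes share strands and families they are not independent, and no test was made.

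Most members were not close variants of a sequence with reads. Counting substitutions, insertions and deletions as edits, 11 of the 63 silent sequences (17.5%) lay within 2 edits of a detected sequence, whereas 61 of the 127 detected ones (48%) lay within 2 edits of another detected one. The median distance was 6 edits for silent and 3 for detected sequences, and 32 (50.8%) and 41 (32.3%) were 6 or more edits away. None lay within 2 edits of a sequence with 1000 or more counts. The closest to such a sequence was miR159a-5p, 3 edits from miR319a-5p.

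All 11 close pairs, each a member and its nearest detected sequence, stayed within a family. That nearest sequence was itself rare, with a median of 1 count. Against detected sequences of 10 or more counts alone, 2 members lay within 2 edits. In the 5 pairs printed above, positions are counted from 1 at the 5′ end, and the base of the detected sequence comes first. miR156g-3p (C13G) and the miR156i-3p of 22 bases (G21C) differed from miR156f-3p, which had 1 count. miR172b-5p (C10U) differed from miR172d-5p, with 2 ethephon and 4 water counts, miR395a-5p (U11G) from miR395d-5p, with 1 count, and miR5021c-5 (C14U) from miR5021d-5, with 2. At 2 edits were miR156e-3p (U8G, C13A) and miR156h-3p (U10C, C13U) from miR156f-3p, miR169e-3p from miR169c-3p, miR395c-5p from miR395d-5p and miR399f-3p (G14C, U21G) from miR399h-3p.

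The exception among the 11 nearest sequences was that of miR399c-3p. This member differed at G2A and A13G from miR399a-3p, with 109 ethephon and 117 water counts. The first of these lies in the seed. miR393c-5p was 3 edits from miR393b-5p (A5G, G8A, G9A), with 161 ethephon and 180 water counts, and its seed also differed. miR159i-3p was 3 edits from miR159e-3p, with 415 ethephon and 417 water counts, and 4 edits from miR159j-3p, with 805721 counts in all. miR2275c-3 differed at C3U, A4G and U13C from miR2275a-3, which had 2 counts.

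Shifted ends brought a pair of abundant sequences closer. The first 16 bases of miR396a-5p, which had 1716 ethephon and 2668 water counts, are also the last 16 of miR396c-3p, shifted by 5 bases, although the full sequences are 10 edits apart. In 20 overlapping bases with a shift of 1, miR159a-5p differed from miR319a-5p, which had 521 ethephon and 774 water counts, by a single mismatch, C19G by positions in miR319a-5p. How reads were assigned where they match parts of several listed sequences is not given in the sources used here.

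**Figure D4:**
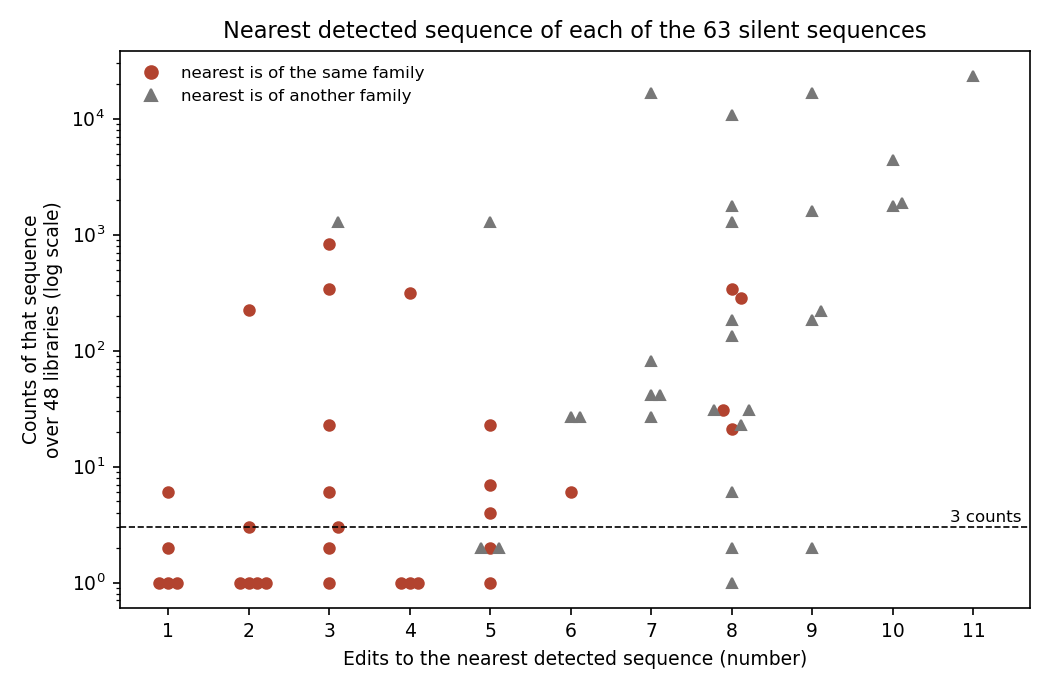
Each of the 63 silent sequences by its number of edits to the nearest detected sequence (horizontal) and the counts of that sequence over the 48 libraries (vertical, log scale). Circles have a nearest sequence of the same family and triangles of another, points are moved sideways where they would overlap, and the dashed line marks 3 counts. Within 2 edits only miR399c-3p has a nearest sequence with more than 6 counts.

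The seed was shared with a detected sequence by 16 of the 63 members (25.4%), and by 57 of the 127 detected sequences (44.9%) with another detected one. Targets were not compared. The detected carriers of a shared seed had at most 9 counts together. The 63 members held 51 distinct seeds, and no detected sequence carried 43 of them. Among themselves, 21 members shared their seed with another silent sequence. The largest group was CUCACUU, held by 4 silent miR156 sequences and by miR156b-3p and miR156f-3p, with 4 counts together. GUUCCCU was held by miR395a-5p, miR395c-5p and miR395e-5p and by miR395d-5p with 1 count. miR156c-3p and miR156e-3p shared CUCACUG, which no detected sequence had, and miR2275e-5 and miR2275f-5 shared GAAUUGG. Seeds also crossed families, since UUGGUUU joined miR159i-3p and miR2275c-3, and GCAAGUC miR169h-3p and miR399g-5p.

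Features of the sequences themselves were not used by the rule. G was the first base of 29 of the 63 silent sequences (46%) and of 26 of the 127 detected (20.5%). U, the first base that ARGONAUTE1 is known to prefer, began 15 (23.8%) and 58 (45.7%). The difference was seen on both arms: among 5p sequences G began 47.1% of silent and 16.1% of detected ones, and among 3p sequences 44.8% and 23.9%. Detected sequences of 1 to 9 counts lay between, with G first in 27.8% and U first in 33.3%, whereas those of 10 or more counts had G first in 17.6% and U first in 50.5%. G began all 6 silent 3p sequences of miR156, all 6 silent 5p sequences of miR399 and all 4 of miR159. It also began the detected 3p sequences of miR156 and 5p sequences of miR399, but not the detected 5p ones of miR159. Family members share their ends, so these sequences are not independent and the shares are given with no test.

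**Figure D5:**
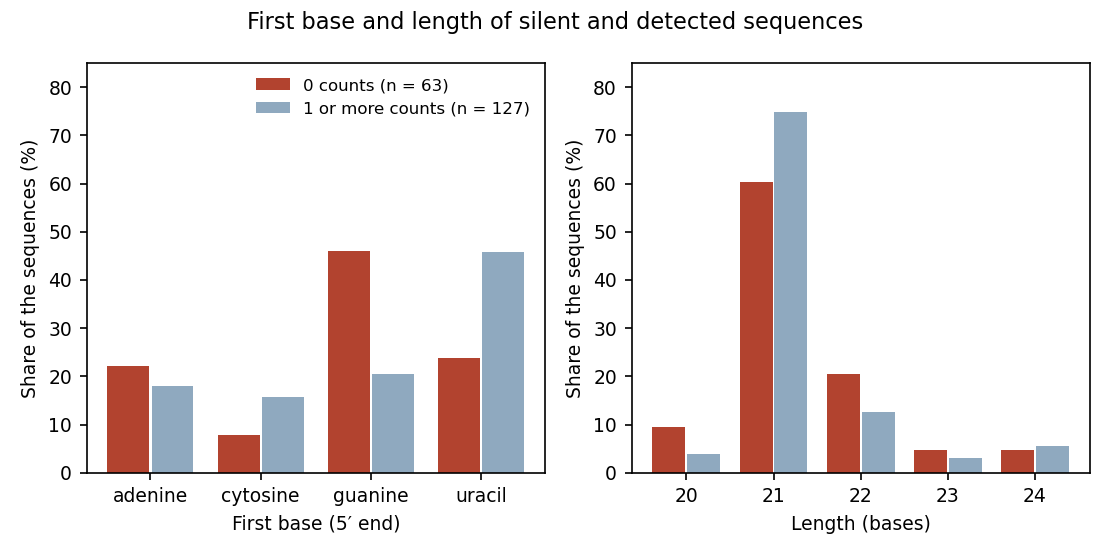
Share of the 63 silent (dark) and the 127 detected (light) sequences by first base at the 5′ end (left panel) and by length in bases (right panel), in percent. Guanine starts 46% of silent and 20.5% of detected sequences, and 21 bases is the commonest length of both.

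Lengths overlapped. Of the silent sequences 38 (60.3%) had 21 bases and 13 (20.6%) had 22, against 95 (74.8%) and 16 (12.6%) of the detected ones. By length, 6 of 11 listed sequences of 20 bases were silent, 38 of 133 of 21 bases, 13 of 29 of 22, 3 of 7 of 23 and 3 of 10 of 24. The median G and C content was 47.6% in silent and 52.4% in detected sequences. The silent range of 14.3% to 69.6% ran lower than the detected one of 27.3% to 71.4%, through miR5057b-3 at 14.29% and miR5057a-5 at 19.05%. The 4 listed sequences made of A and G alone, miR5021a-3, miR5021b-5, miR5021d-3 and miR2673f-5, were all silent, and so were 3 of the 4 made of C and U alone, the exception being miR2673f-3 with 2 counts. The first of these sets is near repetitive, and miR5021a-3 differs from miR5021b-5 by A1G and miR5021d-3 from miR5021a-3 by G2A.

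Several listed names pointed to the same silent sequence. The table's 190 sequences carry 253 names, of which 72 belong to the 63 silent sequences. Of these, 7 carry more than a single name, for example miR393b-3p, also named miR393c-3p, and miR2275c-3, also named miR2275d-3 and miR2275e-3. For such a sequence the zero holds for each of the hairpin genes that share it.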

How the data were processed

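Small RNA reads of 48 apex libraries were processed by the authors, who removed adapters, collapsed identical reads and aligned the unique sequences to mature miRs of miRBase version 22. The aligner, its settings and the miR gene positions were not given in the sources used here. The deposited table gives the raw count of each of 190 mature sequences per library, and a score, which the authors made by scaling counts to 10000000 sequencing tags and rounding. A deposited list of names, an other kind of file, pairs sequences with miR names.

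Members were the sequences whose counts summed to 0, and the rule, the members and the family lists were chosen with earlier results of these data known. A sequence with several names was placed in the family of its first name. Sequencing tags per library were recovered from counts and scores of at least 100. Limits are 3 counts of the total, taken as the level that a count of 0 allows. Total counts and tags were compared between 24 ethephon and 24 water libraries, taken as independent, by two-sided permutation tests of mean log2 values (100000 resamples, SciPy 1.17.1), with Benjamini-Hochberg adjustment over both; field replications of 3 apices each are the replicates. The distance between sequences is the edit distance, the shifted overlap had at least 16 bases, and strands were paired with RNAduplex of ViennaRNA 2.7.2. The distance and overlap code was tested on simulated data. All members are named. Detected sequences are named where their total was 1 to 3, where they led a family with a member, lay within 2 edits of a member or were its opposite arm with 100 or more counts. The rule for printing sequences took the wholly silent families and members at 1 edit from a detected sequence of 1000 or more counts, which none was, so the other printed sequences were chosen after their values were seen, as were other detected sequences named. Alternatives were other limits on the total, leaving out replicates, single treatments, other distances and seeds, and a replicate block.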

Additional observations from a re-analysis of the deposited data

How the results depend on the processing

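The number of silent sequences was 63 by the authors' scores too, 75 with at most 1 count, 85 with at most 3 counts and 99 under 10 counts. It was 76 in the ethephon libraries alone and 69 in the water libraries alone, 68 to 70 without replicate 1, 2 or 3 of every group, and 72 by miR names. Leaving out any single library gave 63 to 65. The detection limit over all libraries was 0.34 CPM with 1 count in place of 3, and 1.52 to 1.53 CPM without replicate 1, 2 or 3. With detection set at 10 or more counts, 2 members instead of 11 lay within 2 edits of a detected sequence, and 0 instead of 16 shared its seed. With mismatches over shifted ends the first number was 15, and with bases 2 to 7 the second was 22.

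The ethephon minus water difference in log2 listed counts ran from -0.35 (adjusted p = 0.038, without replicate 1 of every group) to -0.10 (without replicate 3; adjusted p = 0.607) by permutation tests. It was -0.16 without replicate 2 of ethephon at day 5, the library with the fewest counts (adjusted p = 0.218, permutation test). That in log2 tags ran from 0.03 to 0.04 without replicate 1, 2 or 3. With the replicate block, which paired libraries of the same sampling and number, the differences kept their values of -0.23 and 0.03 (adjusted p = 0.127 and 0.422, sign-flip permutation). Permuting within each sampling gave adjusted p values of 0.112 and 0.467. The deviations of same-numbered libraries correlated at -0.15, 0.37 and 0.68 for listed counts and at 0.46, 0.60 and 0.57 for tags over 8 samplings (replicates 1, 2 and 3). The correlations were positive at each number for tags, but not for listed counts, and were not tested. The block changed neither call. The cause of these changes was not tested. Depth limits the zeros to the levels given, and the number of mismatches that the alignment allowed is not known here.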
